A study of Mus musculus with 8 samples.

Results

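The genes described here build the contractile unit of heart muscle and tie it to the cell membrane. They comprise 45 genes, listed by name, of the 55421 genes measured, and they fall into 6 compartments: the thin filament (10 genes), the thick filament with titin and the M-band (7), the Z-disc (12), the partners of titin in the I-band (3), the costamere with the intermediate filament and intercalated disc (8), and the factors that assemble or degrade these structures (5). RNA was sequenced from the right ventricle of 4 homozygous POLG D257A mice (POLG, libraries E to H) and of 4 wild type mice (WT, libraries A to D), all female and 9 to 10 months of age. Both genotypes came from crosses of heterozygous parents of the line B6.129S7(Cg)-Polgtm1Prol/J, in which the allele is inherited through the germline and is not limited to heart muscle. POLG is the polymerase that copies mitochondrial DNA, and the D257A substitution takes away its proofreading. Each library came from the whole tissue of 1 mouse, so that fewer cells of a type and less RNA per cell cannot be told apart.

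In a sarcomere, myosin thick filaments pull on actin thin filaments. Calcium binds troponin C, troponin I and troponin T pass the signal on to tropomyosin, and tropomyosin moves to free the myosin binding sites on actin. Titin spans from the Z-disc, where the thin filaments are anchored, to the M-band, where the thick filaments are cross-linked. Costameres and desmin filaments join the Z-discs to the membrane and to neighbouring myofibrils, and in the heart many of the Z-disc and titin-bound proteins also respond to stretch.

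Levels are given in FPKM, fragments mapped to a gene, scaled for transcript length and for sequencing depth. The genotypes were compared with limma, on log2(FPKM + 1), for 10236 genes that averaged 1 FPKM or more, and p values were adjusted over these genes after Benjamini and Hochberg (adjusted p). A gene passed at an adjusted p under 0.05. Fold changes are POLG over WT on that log2 scale, where low genes appear to change less than they do. Over all genes, 71 passed as higher and 217 as lower in POLG. Each of the 8 fits that left out 1 library passed fewer genes, 11 to 62 as higher and 31 to 116 as lower. Median ratio scaling gave 130 higher and 119 lower and moved the median log2 fold change to 0.01, against -0.09 without it. The depth, estimated from the lowest FPKM, was roughly 13.5 to 22.7 M fragments per library. WT libraries C and D stood apart: the atrial light chain gene Myl7 had 51.7 FPKM in C and 110.0 FPKM in D, against at most 0.498 FPKM in the other 6 libraries. The nuclear RNA Malat1 was also highest in both. POLG H resembled them in Rn7s1, a noncoding RNA of the signal recognition particle, with 144 FPKM, against 143 FPKM in WT C, 154 FPKM in WT D and at most 60.9 FPKM in the other 5. The limma comparisons were repeated without WT C and D, while the ratios and shares of FPKM used all libraries. No fit left out POLG H together with WT C and D. Of 7 cardiomyocyte markers, 2 passed as lower in POLG (Myh6 and Atp2a2), and the 7 summed to 6735 to 9285 FPKM in POLG and to 10347 to 11581 FPKM in WT, and all 8 markers of skeletal muscle were below 1 FPKM in every library.

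Of the 45 genes, 44 reached the mean of 1 FPKM and 3 passed the test, all lower in POLG: Tnni3, Tpm1 and Unc45b. They make up 6.82% of the genes tested here, against 2.81% of all genes tested (2.12% lower and 0.694% higher). None passed as higher by limma. For 14 of the 44 genes, or 31.8%, the 4 POLG values and the 4 WT values did not overlap (12 lower and 2 higher in POLG). The same held for 15.8% of all genes tested, with 12.9% lower and 2.96% higher. The log2 fold change was below 0 in 26 of the 44 genes, or 59.1%, and in 68.3% of all genes. Its median was -0.10 over the 44 genes and -0.09 over all genes, and after median ratio scaling both medians were 0.01. An unadjusted p under 0.05 was found for 36.4% of the 44 genes (3 above 0 and 13 below) and for 22.2% of all genes. The split was 7 above and 10 below after median ratio scaling, and 5 above and 10 below after quantile normalization. After quantile normalization 4 of the 44 genes passed (Tnni3, Tpm1, Unc45b and Myom2), against 2.69% of all genes, and after median ratio scaling 2 (Tnni3 and Unc45b), against 2.43%. Without WT C and D no gene of the 45 passed limma, at a smallest adjusted p of 0.0820, with 14 at an unadjusted p under 0.05 (13 below 0 and 1 above), and 0.276% of all genes passed. The exact permutation test per gene, whose smallest p is 0.0286 for 4 against 4 mice, passed 0 of all 10236 genes once adjusted, so its count does not bear on these genes. The 14 genes without overlap are those with an unadjusted p under 0.05 in it.

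**Figure D1:**
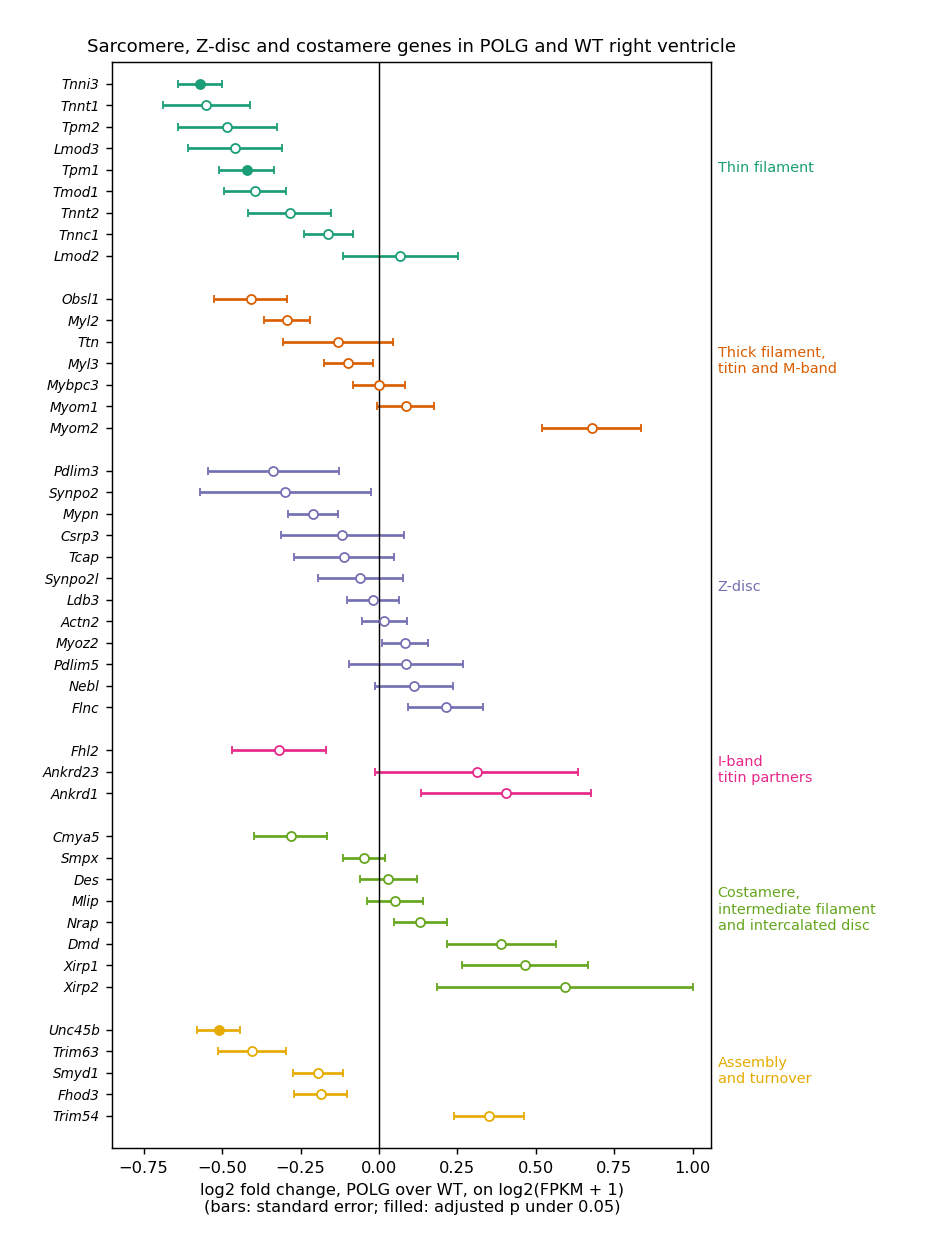
Log2 fold change of POLG over WT (x axis, on log2(FPKM + 1)) for the 44 genes tested, grouped by compartment and ordered within each. Bars are the standard error from limma, and filled points mark the 3 genes with an adjusted p under 0.05. The thin filament genes lie to the left of 0 except Lmod2, and Myom2, at 0.68, lies farthest to the right.

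Thin filament genes had the lowest median log2 fold change of the 6 compartments, -0.42 over the 9 tested. Tnni3 and Tpm1 passed as lower, 8 of the 9 had a log2 fold change below 0, and 5 did not overlap between the genotypes, all lower in POLG. Of all genes tested, 2.12% passed as lower, 68.3% stood below 0, and 12.9% were lower without overlap. The compartment median was -0.30 after median ratio scaling, -0.39 after quantile normalization and -0.30 without WT C and D, where the I-band partners stood slightly lower, at -0.31. As a share of the summed FPKM of nuclear-encoded genes, the thin filament genes took 0.987%, 1.16%, 1.07% and 1.03% in POLG E to H, against 1.24%, 1.45%, 1.41% and 1.42% in WT A to D. The shares did not overlap. The summed cardiomyocyte markers, which are other genes, did not overlap between the genotypes either. Of those 7 markers, 4 did not overlap (Myh6, Ryr2, Pln and Atp2a2, all lower in POLG), while Actc1 (-0.28, adjusted p = 0.379), Nkx2-5 (-0.02, adjusted p = 0.926) and Ckmt2 (-0.09, adjusted p = 0.543) overlapped. Their part in the thin filament shares was not tested.

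Tnni3 encodes cardiac troponin I, the subunit that holds the thin filament off at low calcium. It lies on chromosome 7 (mm10, 4518305 to 4524229, minus strand; ENSMUSG00000035458.15). Tnni3 had 829, 869, 931 and 786 FPKM in POLG E to H, against 1190.0, 1302, 1230.0 and 1346 FPKM in WT A to D. The genotypes did not overlap, with the lowest value in POLG H and the highest in WT D. The means were 854 ± 61.4 FPKM in POLG and 1267 ± 70.2 FPKM in WT (SD, n = 4 each). The log2 fold change was -0.57 (SE 0.070, adjusted p = 0.00892 by limma), and the mean fell by 32.6% in POLG. Tnni3 passed in each of the 8 fits that left out 1 library (adjusted p = 0.0200 to 0.0379) and after median ratio scaling, at -0.45 (adjusted p = 0.0200). Without WT C and D it was -0.55 (adjusted p = 0.0820). The annotated span overlaps Dnaaf3 on the same strand, which averaged 2.16 FPKM.

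Tpm1 encodes the main tropomyosin of the mouse ventricle, the coiled coil that lies along actin (chromosome 9, 67022590 to 67049406, minus strand; ENSMUSG00000032366.15). It had 694, 742, 743 and 703 FPKM in POLG E to H, against 812, 971, 1049 and 1048 FPKM in WT A to D. The POLG values were close together, while WT A lay nearest to them and WT C and D farthest. The means were 720.5 ± 25.9 FPKM in POLG and 970.0 ± 111 FPKM in WT (SD, n = 4 each), so that it fell by 25.7% in POLG, with a log2 fold change of -0.42 (SE 0.088, adjusted p = 0.0449 by limma). The call was kept in 1 of the 8 fits without a library, that without WT A (adjusted p = 0.0225), and lost in the other 7 (0.0773 to 0.130). It was also lost after median ratio scaling, at -0.30 (adjusted p = 0.138), and without WT C and D, at -0.30 (adjusted p = 0.223).

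The sequences before the start of the 3 genes that passed are shown because the genes moved the same way, and each was searched for the same 4 motifs. Each run is the 250 bases upstream of the transcription start in RefSeq (GRCm38.p6), from 5′ to 3′ on the strand of the gene. The runs of Tnni3 and Unc45b lie inside the annotated spans of these genes, and that of Tpm1 lies partly inside its span. Capitals mark a match to MCAT, CATTCC on either strand, and the other bases are in lower case.
Tnni3, chr7:4522529-4522778, minus strand: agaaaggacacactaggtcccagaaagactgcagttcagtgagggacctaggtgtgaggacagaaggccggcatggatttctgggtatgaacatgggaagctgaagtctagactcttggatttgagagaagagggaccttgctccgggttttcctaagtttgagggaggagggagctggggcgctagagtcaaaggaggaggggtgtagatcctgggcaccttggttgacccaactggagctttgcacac
Tpm1, chr9:67049214-67049463, minus strand: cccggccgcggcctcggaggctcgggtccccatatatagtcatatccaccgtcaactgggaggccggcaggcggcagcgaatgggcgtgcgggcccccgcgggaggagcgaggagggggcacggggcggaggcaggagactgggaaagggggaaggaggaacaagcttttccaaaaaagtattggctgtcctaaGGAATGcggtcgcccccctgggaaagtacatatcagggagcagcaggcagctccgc
Unc45b, chr11:82911003-82911252, plus strand: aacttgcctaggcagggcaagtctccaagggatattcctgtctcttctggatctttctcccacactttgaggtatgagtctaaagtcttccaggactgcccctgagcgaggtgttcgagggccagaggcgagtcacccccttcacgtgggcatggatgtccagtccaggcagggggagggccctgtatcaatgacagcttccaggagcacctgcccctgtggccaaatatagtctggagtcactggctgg

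The Tpm1 match, GGAATG, is CATTCC read on the other strand and spans positions -56 to -51 from the start. The runs shown for Tnni3 and Unc45b held no match to MCAT, to the TATA box TATAAA, or to the MEF2 site and the CArG box. The G and C content was 53.6% for Tnni3, 65.2% for Tpm1 and 56.8% for Unc45b. RefSeq promoters, from 250 bases before to 50 bases after the start, were matched for 40 of the 45 genes. Fhod3, Tcap, Lmod3, Xirp1 and Myom2 had none. MCAT was found in 15 of the 40 genes (18 of their 55 promoters) and in 14.7% of 32851 promoters of the same length. The TATA box was found in 10 genes (11 of 55 promoters) and in 13.6% of all promoters. The MEF2 site was found in 8 genes (9 of 55 promoters) and in 3.19% of all, and the CArG box in 6 genes (8 of 55 promoters) and in 1.63% of all. At Fhl2, a MEF2 site from -31 to -22 held a TATA box within it, from -28 to -23 on the other strand. A CArG box from -31 to -22 was counted from a different Fhl2 start and so lies on other bases. All 4 motifs were searched on both strands, and a match is a string of letters, not a measured binding site.

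The other troponin genes stood at very different levels. Tnnc1, cardiac troponin C, which binds the calcium, had 962, 1143, 1169 and 1197 FPKM in POLG E to H, against 1217, 1305, 1207 and 1253 FPKM in WT A to D. The genotypes did not overlap, but POLG H and WT C were less than 10 FPKM apart, and the log2 fold change of -0.16 did not pass (SE 0.077, adjusted p = 0.260) and was -0.09 without POLG E. Tnnt2, cardiac troponin T, which links troponin to tropomyosin, averaged 570.4 ± 51.5 FPKM in POLG and 702 ± 131 FPKM in WT (SD, n = 4 each; -0.29, adjusted p = 0.250), and the genotypes overlapped. Within a library, the Tnni3 FPKM over the Tnnc1 FPKM was 0.862, 0.761, 0.796 and 0.657 in POLG E to H, against 0.978, 0.998, 1.02 and 1.07 in WT A to D. Troponin I mRNA thus stood below troponin C mRNA in each POLG library and near it in each WT library. The ratio was chosen after the values were seen and carries no test. Ratios of Tpm1, Tnnt2 and Tmod1 to Tnnc1 overlapped between the genotypes.

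Slow skeletal troponins were at low levels, among them Tnni1, the troponin I that the fetal heart expresses before Tnni3 takes over. Tnni1 was below the filter, at most 0.0508 FPKM in POLG and at most 0.105 FPKM in WT, and POLG H and WT A and B held 0.0001, the entry the table uses for 0. Tnnt1, slow skeletal troponin T, had 2.42, 3.27, 2.49 and 2.10 FPKM in POLG E to H, against 3.51, 3.76, 4.20 and 5.51 FPKM in WT A to D. All POLG values were below all WT values, and the log2 fold change was -0.55 (SE 0.14, adjusted p = 0.0722). Tnnt1 and Tnni3 are neighbours on chromosome 7, as are Tnni1 and Tnnt2 on chromosome 1. Tnnt1 took 0.451% ± 0.0888 of the Tnnt1 and Tnnt2 FPKM in POLG and 0.607% ± 0.108 in WT (SD, n = 4 each), a difference of -0.156 percentage points (two-sided exact permutation test, p = 0.0571, and 0.171 after adjustment over 3 shares). The Tpm2 share of Tpm1 and Tpm2 was 0.624% ± 0.131 in POLG and 0.686% ± 0.0798 in WT (exact two-sided permutation test, p = 0.457, adjusted 0.686). The Tnni1 share of Tnni1 and Tnni3 was 0.00305% in POLG and 0.00276% in WT (exact permutation p = 0.83, adjusted 0.83). The smallest p that 4 against 4 mice allow is 0.0286. None of the 3 shares passed, and each of these isoforms stayed under 1% of its pair in every library.

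The pointed end of the thin filament is capped by tropomodulin and lengthened by leiomodins. Tmod1, the cap, had 53.4, 58.1, 58.8 and 52.4 FPKM in POLG E to H, against 66.4, 65.4, 83.7 and 80.0 FPKM in WT A to D. No POLG value reached a WT value, and WT C and D were the highest. The log2 fold change was -0.40 (SE 0.099, adjusted p = 0.0699) and it did not pass. Lmod2, the leiomodin of the heart, averaged 272 ± 37.5 FPKM in POLG and 265 ± 70.1 FPKM in WT (0.07, adjusted p = 0.865), and Lmod3, its relative in skeletal muscle, 28.6 ± 5.12 FPKM in POLG and 39.5 ± 5.22 FPKM in WT (-0.46, adjusted p = 0.129). Tpm2, a tropomyosin of slow skeletal and smooth muscle, averaged 4.55 ± 1.11 FPKM in POLG and 6.69 ± 1.09 FPKM in WT (-0.48, adjusted p = 0.128). Smooth muscle markers moved beside it: they summed to 43.6 to 74.2 FPKM in POLG and to 92.2 to 131 FPKM in WT. Of their 4 tested genes, 3 were lower without overlap, against 12.9% of all genes tested. Myh11, their myosin, passed as lower at -0.50 (adjusted p = 0.0370), as 2.12% of all genes did. The Myh11 call was kept after median ratio scaling, at -0.40 (adjusted p = 0.0435). It was lost in each of the fits without a library (adjusted p = 0.0515 to 0.0959). It was also lost without WT C and D, at -0.37 (adjusted p = 0.174). The part of the smooth muscle markers in the Tpm2 value was not tested.

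**Figure D2:**
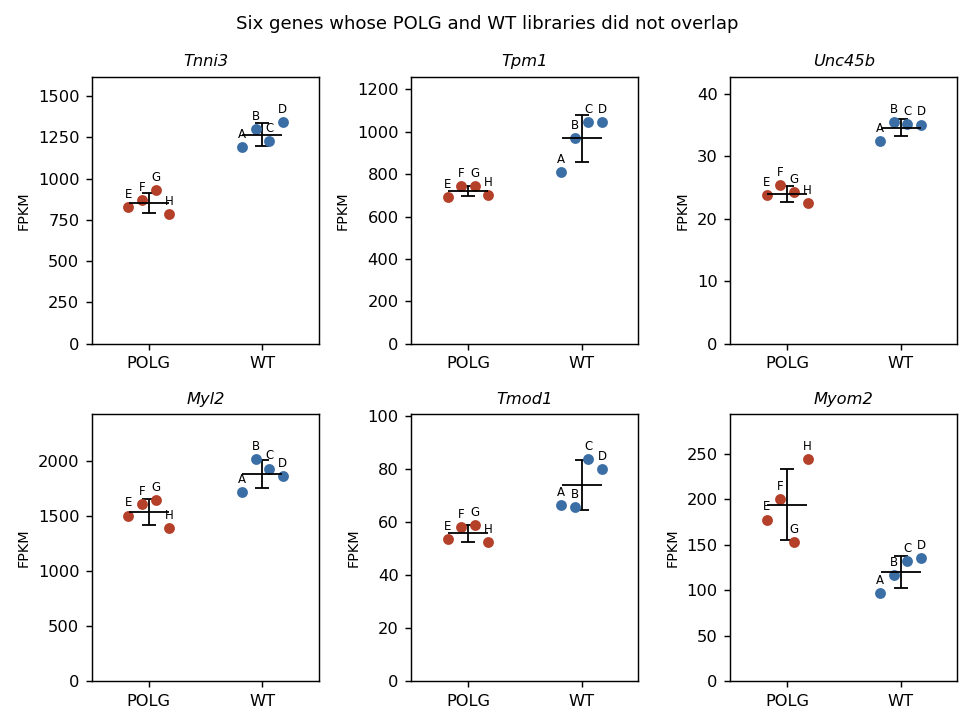
FPKM of 6 genes in each POLG library (E to H) and each WT library (A to D), with the mean and SD of 4 mice as bars. For Tnni3, Tpm1, Unc45b, Myl2 and Tmod1 every POLG point lies below every WT point, and for Myom2 every POLG point lies above, with POLG H the highest at 245 FPKM.

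Thick filament, titin and M-band genes did not pass by limma (0 of 7), with 3 at an unadjusted p under 0.05. Of the 7 log2 fold changes, 3 were above 0 and 4 below. Over all genes tested, 2.81% passed, 22.2% had an unadjusted p under 0.05 and 68.3% stood below 0. The median log2 fold change of the 7 genes was -0.10, in a range of -0.41 to 0.68, and it was 0.02 after median ratio scaling. Myl2, the regulatory light chain of the ventricle, had 1503, 1606, 1648 and 1389 FPKM in POLG E to H, against 1720.4, 2018, 1931 and 1859.6 FPKM in WT A to D. By its mean FPKM it was the most abundant of the 45 genes in both genotypes, and no POLG value reached a WT value. The log2 fold change was -0.29 (SE 0.075, adjusted p = 0.0724). Myl3, the essential light chain, averaged 1523 ± 139 FPKM in POLG and 1627 ± 101 FPKM in WT (-0.10, adjusted p = 0.498), with overlap between the genotypes. Mybpc3, cardiac myosin binding protein C, averaged 576 ± 61.6 FPKM in POLG and 573 ± 19.99 FPKM in WT (SD, n = 4 each), at a log2 fold change of 0.00 (SE 0.083, adjusted p = 0.996). Titin (Ttn) averaged 20.001 ± 4.41 FPKM in POLG and 21.9 ± 3.92 FPKM in WT (-0.13, SE 0.17, adjusted p = 0.701).

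Genes of the M-band lay at both ends of this range. Myom2, the myomesin of fast fibres, cross-links myosin filaments (chromosome 8, 15057653 to 15133541, plus strand; ENSMUSG00000031461.4). It had 178, 201, 152 and 245 FPKM in POLG E to H, against 96.3, 117, 132 and 135 FPKM in WT A to D. Each POLG library was above each WT library, with POLG H highest and WT A lowest. The mean was 1.62 times as high in POLG (194 ± 39.1 FPKM) as in WT (120.1 ± 17.7 FPKM), and the log2 fold change of 0.68 (SE 0.16, adjusted p = 0.0581) was the highest of the 44 genes but did not pass. It passed after quantile normalization, at 0.73 (adjusted p = 0.0496), with library weights, at 0.62 (0.0483), and with a filter at 5 FPKM (0.0440). Without WT C and D it was 0.84 (adjusted p = 0.149). Myom1, the myomesin of all striated fibres, averaged 103 ± 11.9 FPKM in POLG and 96.4 ± 5.18 FPKM in WT (0.09, adjusted p = 0.618). The ratio of Myom2 to Myom1 was 1.91, 1.98, 1.58 and 2.04 in POLG E to H, against 1.05, 1.19, 1.28 and 1.46 in WT A to D. It was higher in each POLG library. Obsl1, a cytoskeletal adaptor that binds titin and myomesin at the M-band, had 5.47, 6.42, 5.49 and 5.47 FPKM in POLG E to H, against 7.60, 6.60, 7.72 and 9.998 FPKM in WT A to D. POLG F lay just below WT B, and the log2 fold change was -0.41 (SE 0.12, adjusted p = 0.0979).

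None of the 12 Z-disc genes passed by limma, against 2.81% of all genes tested. An unadjusted p under 0.05 was found for 1 (Mypn), against 22.2% of all genes. All 12 overlapped between the genotypes, and 15.8% of all genes did not. Whether the Z-disc differs from all genes in these counts was not tested. The median log2 fold change was -0.04 (range -0.34 to 0.21), and 0.08 after median ratio scaling. Actn2, the alpha-actinin that cross-links actin, averaged 358 ± 19.96 FPKM in POLG and 354 ± 24.1 FPKM in WT (SD, n = 4 each), at 0.02 (SE 0.072, adjusted p = 0.916). Tcap, or telethonin, which caps titin, averaged 1017 ± 113 FPKM in POLG and 1115 ± 256 FPKM in WT (-0.11, adjusted p = 0.728). Csrp3, the muscle LIM protein, averaged 170.5 ± 37.7 FPKM in POLG and 185 ± 42.4 FPKM in WT (-0.12, adjusted p = 0.771). Mypn, myopalladin, averaged 15.8 ± 0.561 FPKM in POLG and 18.5 ± 1.54 FPKM in WT (-0.21, adjusted p = 0.170). Flnc, the filamin of muscle, had the most positive value of the group, with 26.5 ± 4.49 FPKM in POLG and 22.5 ± 1.96 FPKM in WT (0.21, adjusted p = 0.328).

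The other Z-disc genes did not pass either. The calcineurin-binding Myoz2 stood at 0.08 (adjusted p = 0.539), and the PDZ and LIM domain genes Ldb3 at -0.02 (0.923) and Pdlim5 at 0.09 (0.825). Nebl, the nebulin relative of the heart, stood at 0.11 (adjusted p = 0.637). Synpo2 and Synpo2l, actin-bundling relatives of synaptopodin, stood at -0.30 (adjusted p = 0.554) and at -0.06 (0.838). Pdlim3 had the largest difference of the 12, with 1.77, 1.97, 1.99 and 1.09 FPKM in POLG E to H, against 1.62, 1.66, 3.40 and 3.28 FPKM in WT A to D. WT A and B fell among the POLG values, and WT C and D lay above all of them. The log2 fold change was -0.34 (SE 0.21, adjusted p = 0.371), and without WT C and D it turned to 0.02 (adjusted p = 0.965).

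Genes of the titin partners in the I-band, which sit on the elastic part of titin, also did not pass by limma (0 of 3, with 0 at an unadjusted p under 0.05). Over all genes tested, 2.81% passed and 22.2% had an unadjusted p under 0.05. Ankrd1, the cardiac ankyrin repeat protein and a stretch-responsive gene, had 127, 204, 128 and 296 FPKM in POLG E to H, against 160.2, 153, 110.0 and 118 FPKM in WT A to D. POLG F and H were above all WT libraries, while POLG E and G lay among them. The log2 fold change was 0.40 (SE 0.27, adjusted p = 0.407), and it was 0.16 without POLG H and 0.10 with library weights. Fhl2, a LIM protein on titin, had 408, 445, 446 and 274 FPKM in POLG E to H, against 517, 466, 465 and 479.8 FPKM in WT A to D. The genotypes did not overlap, POLG H lay far below the other 7 libraries, and the value was -0.32 (SE 0.15, adjusted p = 0.250), and -0.15 without POLG H. Ankrd23, another ankyrin repeat protein on titin, averaged 61.8 ± 7.04 FPKM in POLG and 54.4 ± 26.2 FPKM in WT, at 0.31 (adjusted p = 0.608) and at -0.31 without WT C and D. The median of the 3 genes was 0.31 with all libraries, 0.10 with library weights, 0.01 without WT D alone and -0.31 without WT C and D.

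Of the 8 genes of the costamere, intermediate filament and intercalated disc, none passed by limma and 2 had an unadjusted p under 0.05. None was without overlap, and 6 were above 0 and 2 below. Of all genes tested, 2.81% passed, 22.2% had an unadjusted p under 0.05, 15.8% did not overlap and 68.3% stood below 0. The median of the 8 genes was 0.09, against 0.20 after median ratio scaling and 0.02 without WT C and D. Desmin (Des), the intermediate filament protein of muscle, averaged 432 ± 52.2 FPKM in POLG and 422 ± 24.6 FPKM in WT (SD, n = 4 each; 0.03, adjusted p = 0.885). Dystrophin (Dmd), which ties actin to the membrane complex, averaged 3.17 ± 0.319 FPKM in POLG and 2.25 ± 0.833 FPKM in WT (0.39, adjusted p = 0.230). The Xin genes of the intercalated disc had the most positive values. Xirp2 had 12.8, 19.8, 16.0 and 12.9 FPKM in POLG E to H, against 10.5, 15.5, 15.6 and 3.19 FPKM in WT A to D. WT D alone lay far below the rest, and the log2 fold change of 0.59 had a wide error (SE 0.41, adjusted p = 0.419) and was 0.14 without WT D. Xirp1 averaged 45.01 ± 14.7 FPKM in POLG, with 66.0 FPKM in POLG F, and 31.4 ± 4.16 FPKM in WT (0.47, adjusted p = 0.217).

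The 4 other genes of this group did not pass either. Nrap, an actin-binding protein of the intercalated disc, averaged 82.6 ± 6.37 FPKM in POLG and 75.3 ± 5.47 FPKM in WT (0.13, adjusted p = 0.378). Cmya5, or myospryn, which binds desmin, averaged 36.2 ± 2.54 FPKM in POLG and 44.5 ± 6.99 FPKM in WT (-0.28, adjusted p = 0.199). Smpx, a small muscle protein of the costamere, stood at -0.05 (adjusted p = 0.720) and Mlip, which binds lamin, at 0.05 (0.778).

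Among the 5 genes of assembly and turnover, Unc45b passed as lower and 4 of the 5 stood below 0. None of them overlapped between the genotypes (4 lower and 1 higher). Of all genes tested, 2.81% passed, 68.3% stood below 0 and 15.8% did not overlap. Unc45b is the chaperone that folds the myosin head in striated muscle (chromosome 11, 82910550 to 82943403, plus strand; ENSMUSG00000018845.14). It had 23.8, 25.5, 24.4 and 22.5 FPKM in POLG E to H, against 32.5, 35.6, 35.3 and 35.1 FPKM in WT A to D. The values were tight within each genotype, with WT A below the other WT libraries. The means were 24.0 ± 1.24 FPKM in POLG and 34.6 ± 1.41 FPKM in WT (SD, n = 4 each), so that it fell by 30.7% in POLG, at a log2 fold change of -0.51 (SE 0.069, adjusted p = 0.0138 by limma). It passed after median ratio scaling, at -0.40 (adjusted p = 0.0231), and in 6 of the 8 fits without a library. It was lost without WT D (-0.50, adjusted p = 0.0509), without POLG E (-0.51, 0.0555), and without both WT C and D (-0.49, 0.106).

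Smyd1, a muscle methyltransferase that works with Unc45b in myosin assembly in zebrafish, had 63.7, 75.1, 70.6 and 60.9 FPKM in POLG E to H, against 78.6, 76.1, 78.3 and 75.9 FPKM in WT A to D. POLG F came within 1 FPKM of WT D, and the log2 fold change of -0.19 did not pass (SE 0.079, adjusted p = 0.197). The ratio of Unc45b to Smyd1 was 0.373, 0.339, 0.345 and 0.369 in POLG E to H, against 0.414, 0.468, 0.450 and 0.462 in WT A to D. Unc45b was thus lower relative to Smyd1 in each POLG library. Fhod3, a formin that assembles actin in cardiac sarcomeres, had 33.7, 33.1, 29.9 and 27.2 FPKM in POLG E to H, against 35.0, 33.9, 36.9 and 35.1 FPKM in WT A to D. POLG E and WT B were nearly level, and the value was -0.19 (SE 0.084, adjusted p = 0.234).

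Trim63 and Trim54 encode the ubiquitin ligases MuRF1 and MuRF3, which bind titin and microtubules. Trim63 had 38.4, 30.0, 38.9 and 34.0 FPKM in POLG E to H, against 49.2, 49.0, 40.0 and 49.8 FPKM in WT A to D. Trim54 had 165, 164, 147 and 206 FPKM in POLG E to H, against 138, 147, 125 and 121 FPKM in WT A to D. The 2 genes lay on opposite sides of 0. Trim63 was lower in each POLG library, with WT C near them (-0.40, SE 0.11, adjusted p = 0.0823), and Trim54 was higher in each, with POLG G and WT B apart by less than 1 FPKM (0.35, SE 0.11, adjusted p = 0.124). Neither passed. The Trim54 to Trim63 ratio was 4.30, 5.45, 3.80 and 6.06 in POLG E to H, against 2.81, 3.004, 3.13 and 2.43 in WT A to D, without overlap.

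**Figure D3:**
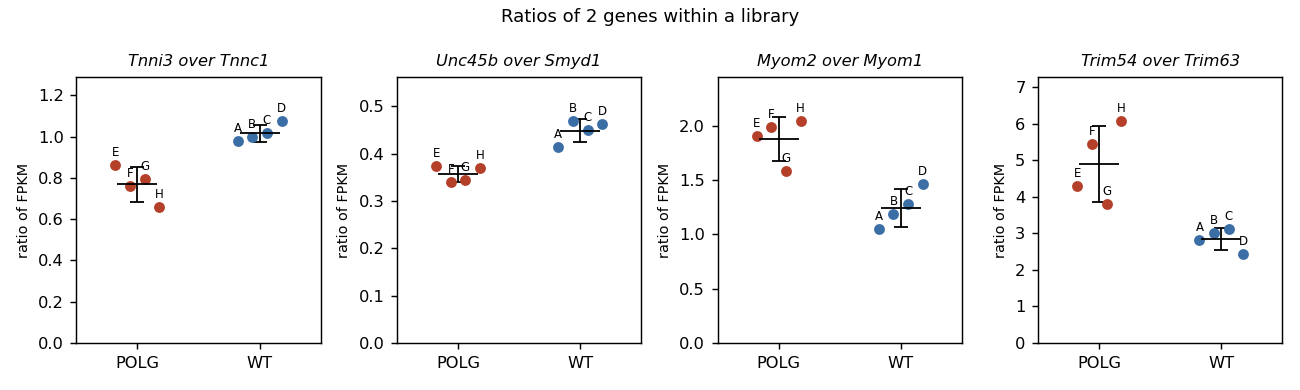
Ratio of the FPKM of 2 genes of one structure within each library, for POLG (E to H) and WT (A to D), with the mean and SD of 4 mice as bars. Tnni3 over Tnnc1 and Unc45b over Smyd1 are lower in every POLG library, Myom2 over Myom1 and Trim54 over Trim63 higher; the pairs were chosen after the values were seen.

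For part of the 45 genes the spread within WT lay between libraries C and D and libraries A and B. In 25 of the 44 genes, or 56.8%, WT C and D lay both above (11 genes) or both below (14) WT A and B, against 47.9% of all genes tested. Ankrd23 averaged 32.2 FPKM in WT C and D and 76.6 FPKM in WT A and B, while the 4 POLG libraries lay between, from 52.8 to 67.7 FPKM. Lmod2 averaged 207 FPKM in WT C and D and 323 FPKM in WT A and B, and Tcap 907 FPKM in C and D and 1323 FPKM in A and B. Csrp3 followed them, with 149 FPKM in WT C and D and 221 FPKM in WT A and B. Ttn lay the other way, with 25.2 FPKM in WT C and D and 18.5 FPKM in WT A and B. Without WT C and D, 7 of the 44 genes changed sign, among them Lmod2 (-0.25) and Ttn (0.08), and 37 kept it. The atrial markers summed to 274 FPKM or more in WT C and D, to 54.8 FPKM or less in WT A and B, and to 70.4 to 203 FPKM in POLG. Nppa alone had 196 FPKM in WT C, 480 FPKM in WT D and 66.6 to 199 FPKM in POLG, where it made up most of the sum. The markers Myl7, Myl4, Mybphl and Sln were at most 0.498 FPKM in POLG and at most 0.370 FPKM in WT A and B. Bmp10 and Dkk3 were higher in each POLG library than in WT A and B, and Gja5 overlapped. The part of the atrial markers in these differences was not tested.

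**Figure D4:**
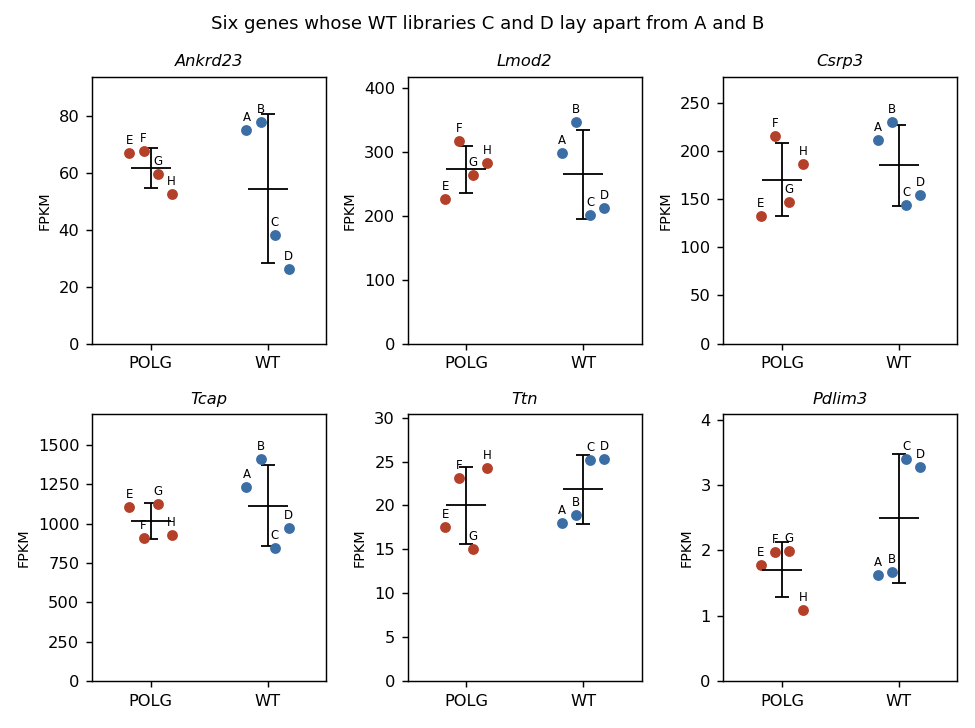
FPKM of 6 genes in each POLG library (E to H) and each WT library (A to D), with the mean and SD of 4 mice as bars. WT C and D lie below WT A and B for Ankrd23, Lmod2, Csrp3 and Tcap, and above them for Ttn and Pdlim3.

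**Figure D5:**
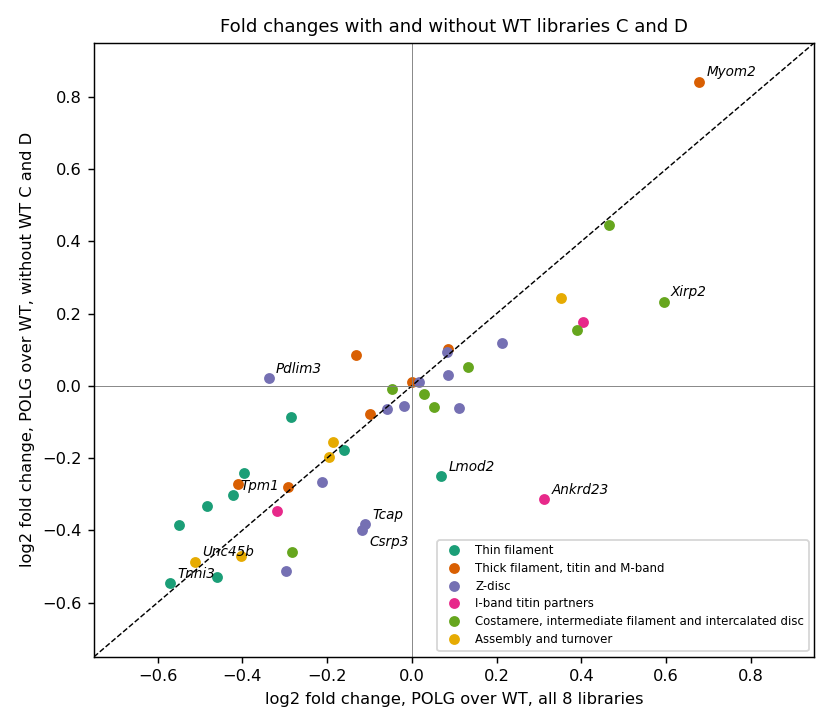
Log2 fold change of POLG over WT with all 8 libraries (x axis) and without WT C and D (y axis) for the 44 genes tested, coloured by compartment; the dashed line marks equal values. Tnni3, Tpm1 and Unc45b stay below 0 on both axes, at -0.55, -0.30 and -0.49 without C and D, and Ankrd23 changes side, at 0.31 and -0.31.

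Of the 44 genes, POLG E, F, G and H held the highest value of all 8 libraries for 1, 8, 0 and 6 and the lowest for 9, 2, 3 and 12, against 4, 10, 7 and 8 highest and 5, 0, 6 and 7 lowest in WT A to D. POLG H held the highest Ankrd1 (296 FPKM), Myom2 (245 FPKM) and Trim54 (206 FPKM) and the lowest Fhl2 (274 FPKM) and Lmod3 (21.3 FPKM), and POLG E the lowest Tnnc1 (962 FPKM), Mybpc3 (494 FPKM) and Myl3 (1363 FPKM). POLG F held the highest Xirp1 (66.0 FPKM), Xirp2 (19.8 FPKM) and Synpo2l (29.7 FPKM). The 45 genes together took 3.10%, 3.51%, 3.25% and 3.16% of the summed FPKM of nuclear-encoded genes in POLG E to H, against 3.60%, 4.10%, 3.77% and 3.70% in WT A to D. The shares did not overlap, although the thin filament was the only one of the 6 compartments whose own share did not.

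Further genes of the same structures were taken as lists, beside all genes tested, of which 0.694% passed as higher and 2.12% as lower. Of 41 other sarcomere genes, 30 were tested, 1 passed as higher and 2 as lower, and their median log2 fold change was -0.25. The higher gene was Acta1, skeletal alpha-actin of the thin filament, with 133 ± 15.0 FPKM in POLG and 35.8 ± 19.7 FPKM in WT (2.03, adjusted p = 0.0339 by limma). The lower genes were the myosin heavy chains Myh6, with 2162 ± 207 FPKM in POLG and 3315 ± 508 FPKM in WT (-0.61, adjusted p = 0.0370), and Myh7b, with 2.93 ± 0.654 FPKM in POLG and 7.30 ± 2.25 FPKM in WT (-1.05, adjusted p = 0.0388). Of 31 other costamere genes, 29 were tested and 2 passed, both lower: Itga7, the laminin-binding integrin of muscle, at 12.4 ± 0.849 FPKM in POLG and 17.3 ± 1.65 FPKM in WT (-0.45, adjusted p = 0.0388), and Sgca, alpha-sarcoglycan of the dystrophin complex, at 31.9 ± 1.23 FPKM in POLG and 41.5 ± 3.22 FPKM in WT (-0.37, adjusted p = 0.0460). Of 12 genes of the intercalated disc, 11 were tested and none passed by limma, at a median of -0.12. An unadjusted p under 0.05 was found for 1 of them and for 22.2% of all genes tested. Most calls on these lists were lost in the 8 fits that left out 1 library: Myh6 and Acta1 kept theirs in 2, Myh7b and Sgca in 1 and Itga7 in 0. Calls were lost over all genes too, where these fits passed 11 to 62 as higher and 31 to 116 as lower, against 71 and 217. Without WT C and D, Acta1 passed at 1.34 (adjusted p = 0.0271) and the other 4 did not, at adjusted p = 0.152 to 0.247, with Myh6 at -0.43, Myh7b at -0.71, Itga7 at -0.38 and Sgca at -0.31 in these 6 libraries. After median ratio scaling Acta1 passed (adjusted p = 0.0327) and the other 4 again did not (0.0584 to 0.195).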

How the data were processed

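The authors prepared stranded poly(A) libraries from right ventricle, sequenced them in paired ends, and named cutadapt, FastQC, HISAT2 (mm10), StringTie and edgeR in their processing notes, versions not given in the sources used here; FPKM of 55421 genes in 8 libraries were deposited as 1 table that lists 0.0001 where a gene had none. Its columns of the authors' own fold (a ratio of means) and the log2 of that ratio were not used, and no column belonged to another sample. A count test needs reads and was not run on FPKM. The pseudocount was 1 and the filter a mean of 1 FPKM, and limma 3.58.1 in R 4.3.3 was fitted to log2(FPKM + 1) with a trend in the prior variance and genotype as its term, using all 8 libraries. The fit was tested on simulated data. Each library is 1 mouse, and labels give no batch. Depth was estimated from single-transcript genes of 500 bases or more that rest on 1 fragment, and is rough. All 45 genes were matched to the annotation by identifier, and 6 of them overlap a gene of at least 1 FPKM on the opposite strand, which a stranded kit can tell apart. Whether the counting used strand is not stated.

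The genes, compartments and lists were chosen with earlier results of these data known. By rule, values in all 8 libraries were given for genes that passed, for genes whose genotypes did not overlap, and for the gene of each compartment with the largest absolute log2 fold change. Other values per library and all ratios were chosen after the values were seen. Alternatives were pseudocounts of 0.1 and 5, a filter at 5 FPKM and none, median ratio, quantile and nuclear scaling, no trend, a robust prior, library weights, a permutation test per gene, and fits without each library and without WT C and D. Python 3.11.15 and matplotlib 3.10.9 were used for promoters, ratios and plots.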

Additional observations from a re-analysis of the deposited data

Results flagged for a closer look

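In each of 90 groups of 4 libraries (45 genes in 2 genotypes), the library farthest out was compared with the next by Dixon's ratio, the gap over the whole range, against its 95% critical value for 4 values. In 3 groups a library lay past it, where chance gives about 1 in 20. For Obsl1, POLG F was the highest POLG library at 6.42 FPKM, with the next at 5.49 FPKM (ratio 0.982). For Unc45b, WT A was the lowest WT library at 32.5 FPKM, with the next at 35.1 FPKM (ratio 0.844). For Trim63, WT C was the lowest WT library at 40.0 FPKM, with the next at 49.0 FPKM (ratio 0.915). In all 3 genes the outlying library was the one of its genotype nearest to the other genotype.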

How the results depend on the processing

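The count of genes passing as higher, 0 with all libraries, was 1 (Myom2) with a filter at 5 FPKM, quantile normalization or library weights, and the count in the thick filament group was then also 1. The count passing as lower, 3, was 0 without WT C and D, and ran from 1 to 3 over the 8 fits without a library. In those 8 fits 31 to 116 of all genes passed as lower, against 217 with all libraries. The count of 3 was also 0 with the permutation test per gene, which passed 0 of all genes tested and could not show a dependence. The thin filament count, 2, was 1 with no filter, median ratio scaling or no trend, 0 with the permutation test and without WT C and D, and 1 to 2 without a library. The assembly and turnover count, 1, was 0 with the permutation test and without WT C and D, and 0 to 1 without a library. Pdlim3 turned to a log2 fold change of 0.021 without WT C and D. With 0.1 FPKM added to both genes, the difference in the Tnni1 share was 0.0041 percentage points, against 0.00028. None of the other 16 genes with values per library changed sign. Median ratio scaling changed the sign of 6 of the 44 genes and quantile normalization of 2, and none of these had passed.

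The permutation test passed 0 of all genes tested, since 4 against 4 mice allow no p below 0.0286, so its counts of 0 say nothing about these genes. No paired analysis was possible because the letters in the labels are not shared between genotypes. FPKM give no counts, so no counting error was computed. Values near 0.1 FPKM rest on few fragments at these depths. With 4 mice a group, a gene that did not pass is not shown to be equal.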
